A study of Mus musculus with 6 samples.

Results

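The nuclear genes for the subunits of the mitochondrial respiratory chain and of ATP synthase were examined in mouse liver with and without an adenoviral vector for TFEB. Members were all genes whose only symbol in the probe annotation began with Nduf followed by a, b, c, s or v and a digit, Uqcr, Cox4 to Cox8 or Atp5, or was Sdha, Sdhb, Sdhc, Sdhd, Cycs or Cyc1, and assembly factors of the Ndufaf type were left out. The rule found 80 of the 12393 genes with a value. Of these, 33 were assigned to complex I, 4 to complex II, 9 to complex III, 16 to complex IV and 17 to complex V, and Cycs encodes cytochrome c. The split followed the symbols alone, so every Nduf gene, Ndufa4 included, was counted in complex I. No filter on low values was applied, so all 80 were tested.

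Mice of both groups were wild type, of the C57 strain and 1 month old, and neither carried an engineered allele per the labels. In 1 group 3 mice received an adenoviral vector to overexpress TFEB, a transcription factor best known for lysosomal and autophagy genes, and the 3 mice of the other group were not injected. The labels describe no liver given an empty vector, so injection, vector and TFEB cannot be told apart, and they do not say which promoter drove TFEB or how long before sampling the vector was given. RNA of the liver was hybridised to an Affymetrix expression array, 1 array per mouse.

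The respiratory chain passes electrons from NADH (complex I) and succinate (complex II) through coenzyme Q to complex III, then through cytochrome c to complex IV, where oxygen is reduced. Complexes I, III and IV pump protons across the inner mitochondrial membrane, and complex V, ATP synthase, lets them flow back to make ATP. Hepatocytes are rich in mitochondria and use this ATP for the synthesis of glucose, urea and plasma proteins. Complexes I, III, IV and V also hold subunits encoded by mitochondrial DNA. None of the 15 genes listed for the mitochondrial genome had a probe set with 1 symbol, so the text concerns the nuclear subunits only.

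Values are log2 levels after RMA, a method that equalises the distribution of intensities between arrays. They cannot show a shift of all transcripts, and they compress the differences of dim probe sets. No detection calls were used. The median of an array lay between 7.11 and 7.15 and its lower quartile between 5.46 and 5.56. Tfeb itself has 1 probe set, which read 7.50, 7.59 and 7.47 without injection and 7.48, 7.78 and 7.46 with it, a difference of 0.05 ± 0.10 (SE; limma adjusted p = 0.716). No source used here says whether it detects the sequence in the vector, so it does not check the labels. Control probe sets differed too: the median, injected minus not injected, was -0.32 for 18 hybridisation and -0.44 for 24 poly-A spike-ins. In all 18 hybridisation and in 23 of the 24 poly-A spike-ins, every injected array lay below every array without injection. The part of labelling or hybridisation in the members' differences was not tested.

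Respiratory chain and ATP synthase genes were higher in injected liver in all 5 complexes, mostly by small amounts. By limma, 39 of 80 members rose (48.8%), 0 fell and 41 did not pass the test at an adjusted p under 0.05. Over all genes, 28.1% were called, 14.2% as higher and 13.9% as lower. Most members were bright, and calls were more frequent among bright genes. In a fit of the 6197 genes at or above the median level, 24.4% were called higher, with a median difference of -0.01. Of the 75 members in that fit, 38 of the 39 were called again and 5 others passed. At an unadjusted p under 0.05 the count of lower members was also 0. The median difference of the members was 0.21, against -0.05 over all genes, and 72 of 80 members (90.0%) but 40.4% of all genes lay above 0. In 56 members every injected array lay above every array without injection, a separation found in 20.1% of all genes. The opposite separation held for 4 members, Ndufa2, Ndufa8, Ndufv3 and Uqcrq, and for 26.1% of all genes.

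The shift was present in each of the 3 injected livers. As a deviation from the mean of the livers without injection, the median member stood at 0.03, -0.02 and -0.01 in those livers and at 0.19, 0.26 and 0.19 in the injected ones. Injected replicate 2 was thus the highest, and the groups did not overlap. Cox7a1 and Cox8b rose most, by 3.44 and 3.22 on the log2 scale of RMA values, from levels not shown to be above background. The other 37 called members rose between 1.15-fold and 1.43-fold, with adjusted p from 0.0017 to 0.0467. Of the 39, 18 were called in all 15 alternative analyses, and no member was called lower in any of them by the probe set that represents it. The count of rises depended on single livers: it was 19 when not-injected replicate 2 was left out, 20 when not-injected replicate 3 was and 24 when injected replicate 3 was, and then 8.36%, 8.84% and 10.3% of all genes were called higher. In whole liver a change in the share of hepatocytes and a change in RNA per hepatocyte cannot be told apart.

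**Figure D1:**
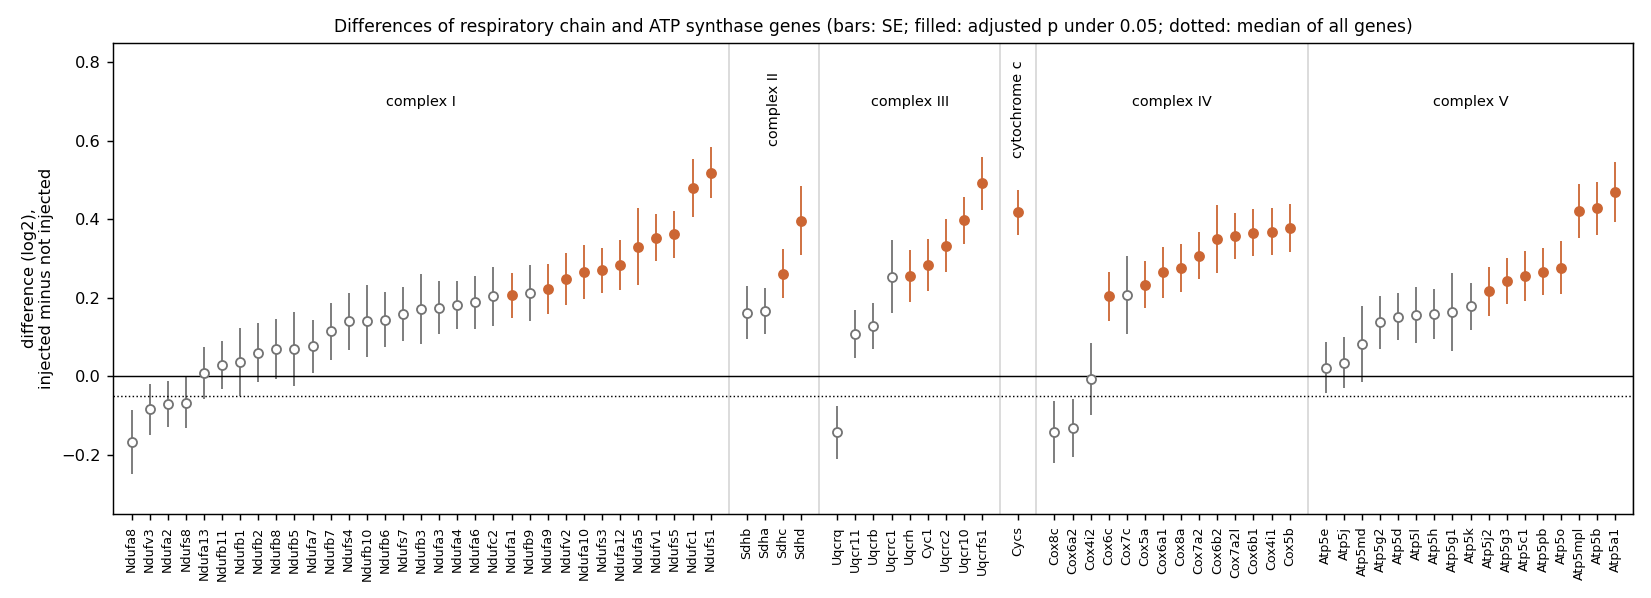
Difference in log2 level, injected minus not injected, of 78 respiratory chain and ATP synthase genes by complex, with bars for the SE of the limma fit, filled points for adjusted p under 0.05 and a dotted line at the median of all genes (-0.05). Cox7a1 and Cox8b, at 3.44 and 3.22, are off the scale and left out, and all filled points lie above 0.

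**Figure D2:**
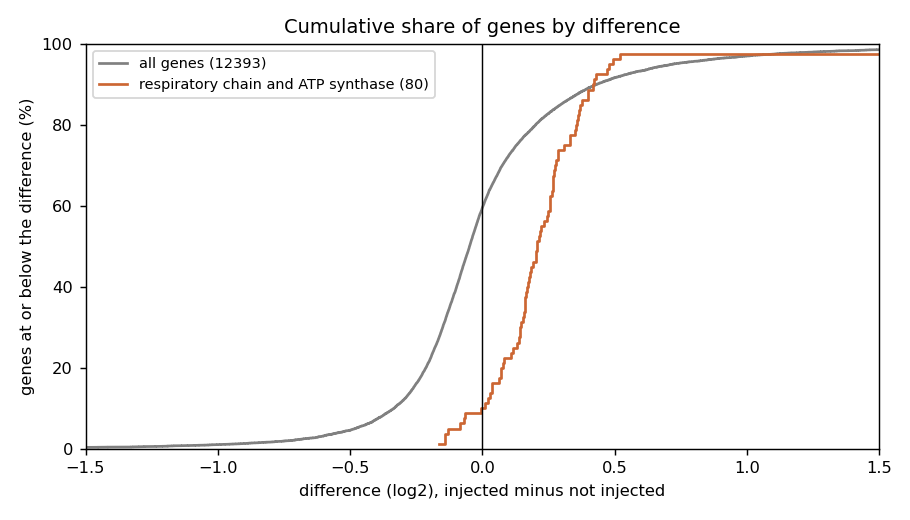
Cumulative share of genes (vertical axis, percent) at or below a given log2 difference, injected minus not injected (horizontal axis), for all 12393 genes and for the 80 members. The members' curve lies to the right of that of all genes over most of its range, since 90.0% of members but 40.4% of all genes were above 0, and the members left at the right edge are Cox7a1 and Cox8b.

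In complex I, the entry point for electrons from NADH, 11 of 33 members rose, 0 fell and 22 did not pass, with a median difference of 0.17. Over all genes, 14.2% were called higher, and 24.4% in the fit of genes at or above the median level. Subunits that bind NADH and carry its electrons were among those that rose. Ndufs1, the large iron-sulphur subunit, read 11.06, 10.97 and 11.04 without injection and 11.47, 11.58 and 11.57 with it. The injected livers stood apart and the difference was 0.52 ± 0.07 (SE; 1.43-fold, limma adjusted p = 0.0017). Ndufv1, which holds the flavin that takes up the electrons, read 12.57, 12.55 and 12.52 without injection and 12.86, 12.94 and 12.90 with it, a rise of 0.35 ± 0.06 (adjusted p = 0.0054). Ndufv2, its iron-sulphur partner, rose by 0.25 ± 0.07 (adjusted p = 0.0293). All 3 measured core subunits of this NADH-binding end thus rose. The split of the core subunits into an NADH-binding and a quinone side was made after the values were seen. The difference between these sides was not tested.

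Of the core subunits on the quinone side, Ndufs3 rose by 0.27 ± 0.06 (adjusted p = 0.0128), while Ndufs7 differed by 0.16 (adjusted p = 0.120) and Ndufs8 by -0.07 (adjusted p = 0.471). Ndufs8 was the only member with several probe sets in which all of them, 6 in number, lay below 0, and none of the 6 was called. Among the accessory subunits, Ndufc1 read 12.34, 12.16 and 12.14 without injection and 12.73, 12.68 and 12.67 with it. It rose by 0.48 ± 0.07 (adjusted p = 0.0037), and Ndufs5 rose by 0.36 ± 0.06 (adjusted p = 0.0049). Ndufa5 rose by 0.33 ± 0.10 (adjusted p = 0.0413), but it was called in 7 of 15 alternatives only. Ndufa12, an accessory subunit near the NADH end, rose by 0.28 ± 0.06 (adjusted p = 0.0163).

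The genes with Ndufb symbols, accessory subunits of the proton-pumping membrane arm, lay on 1 side of 0 without passing the test. All 10 were above 0, between 0.03 and 0.21, with a median of 0.09, yet 0 of 10 passed the limma test and 1 had an unadjusted p under 0.05. That gene was Ndufb9, at 0.21 ± 0.07 (adjusted p = 0.0602), which was called in 5 of 15 alternatives. Ndufb1 and Ndufb5 reached -0.04 and -0.03 in their lowest alternative. Ndufb7 differed by 0.11 (adjusted p = 0.276), but its other probe set lay at -0.09 and was not called. Ndufb4 is not among the 10, since its 2 probe sets also carry the symbols of Ndufb4b and Ndufb4c. Those probe sets were untested but read 0.39 and 0.41 higher with injection, more than any of the 10, with the groups apart. Of the 12 genes with Ndufa symbols, 5 rose. This grouping by symbol was made after the values were seen, and the difference between the groups was not tested. The member of complex I nearest to 0 was Ndufa13, at 0.01 ± 0.07 (adjusted p = 0.934). It lay below 0 with centring on the array median, with array weights and when injected replicate 2 was left out. Its lowest alternative was -0.02. Ndufs4 at 0.14 and Ndufa7 at 0.08, neither called, lay at -0.06 and -0.02 with the mean of their probe sets. The lowest was Ndufa8, which read 11.77, 11.76 and 11.70 without injection and 11.43, 11.64 and 11.67 with it. The groups did not overlap, but the difference of -0.17 ± 0.08 did not pass (adjusted p = 0.167). With 1 array left out, the count of 11 became 7 (not-injected replicate 1), 5 (not-injected replicate 2), 4 (not-injected replicate 3) or 6 (injected replicate 1).

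In complex II, succinate dehydrogenase, all 4 genes were higher in every injected liver than in any liver without injection, and 2 of 4 rose. Over all genes, 20.1% showed this separation and 14.2% were called higher. The called genes, Sdhc and Sdhd, encode the membrane anchors that bind coenzyme Q, but which genes passed depended on the probe set. Sdhd read 12.09, 11.93 and 11.95 without injection and 12.43, 12.50 and 12.25 with it, a rise of 0.40 ± 0.09 (limma adjusted p = 0.0144). Sdhc read 11.20, 11.08 and 11.11, then 11.42, 11.38 and 11.38, a rise of 0.26 ± 0.06 (adjusted p = 0.0200). For the catalytic pair, Sdha, the flavoprotein, read 12.66, 12.61 and 12.64, then 12.77, 12.83 and 12.81, a difference of 0.17 ± 0.06 (adjusted p = 0.0713), and Sdhb, the iron-sulphur protein, differed by 0.16 ± 0.07 (adjusted p = 0.113). A second probe set of Sdha rose by 0.31 ± 0.07 (adjusted p = 0.0141 over all probe sets), while the second probe sets of Sdhc and Sdhd, at 0.19 and 0.26, did not pass (adjusted p = 0.0699 and 0.0727). Sdha was called in 4 of 15 alternatives and Sdhb in 0. This count of 2 dropped to 0 when not-injected replicate 2, not-injected replicate 3 or injected replicate 1 was left out, and to 1 when injected replicate 3 was.

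In complex III, 5 of 9 members rose, 0 fell and 4 did not pass, with a median difference of 0.26. The share called higher over all genes was 14.2%. Uqcrfs1, the Rieske iron-sulphur protein that takes the first electron from reduced coenzyme Q, read 12.41, 12.30 and 12.29 without injection and 12.80, 12.90 and 12.78 with it. The groups were apart and it rose by 0.49 ± 0.07 (limma adjusted p = 0.0025). Cyc1, the cytochrome c1 that hands electrons on to cytochrome c, rose by 0.28 ± 0.07 (adjusted p = 0.0191). Uqcrc2, a core protein, rose by 0.33 ± 0.07 (adjusted p = 0.0107), and its partner Uqcrc1 differed by 0.25 ± 0.09 with overlapping groups (adjusted p = 0.0796).

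Among the small subunits of complex III, Uqcr10 read 12.04, 12.00 and 12.01 without injection and 12.45, 12.38 and 12.41 with it, a rise of 0.40 ± 0.06 (adjusted p = 0.0032). Its other probe sets differed by 0.25 and 0.03, and the mean of all 3 rose by 0.23 (adjusted p = 0.0302). Uqcrh, the hinge protein, rose by 0.26 ± 0.07 (adjusted p = 0.0260). Uqcr11 was the nearest to 0, at 0.11 ± 0.06 (adjusted p = 0.217). Uqcrq was the only member of complex III below 0. It read 13.06, 13.00 and 13.04 without injection and 12.87, 12.99 and 12.82 with it, a difference of -0.14 ± 0.07 (adjusted p = 0.160). Of its 3 other probe sets, all much dimmer, 1 was lower by limma over all probe sets (-0.32 ± 0.10, adjusted p = 0.0420), and the others, at -0.12 and close to 0, did not pass. The count of 5 became 3 when not-injected replicate 2, not-injected replicate 3 or injected replicate 3 was left out.

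Cycs, which encodes cytochrome c, the mobile carrier between complexes III and IV, varied little within a group and rose in each injected liver. It read 13.51, 13.54 and 13.51 without injection and 13.95, 13.95 and 13.93 with it. The rise was 0.42 ± 0.06 (1.34-fold, limma adjusted p = 0.0024) and was called in all 15 alternatives. The other probe sets of Cycs gave larger differences, 0.72 ± 0.07 and 0.60 ± 0.06.

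Complex IV, cytochrome c oxidase, had the highest share of called members among the complexes, although the difference between complexes was not tested. Of its genes 12 of 16 rose, 0 fell and 4 did not pass, with a median difference of 0.29, against 14.2% called higher over all genes. Of its 10 genes that are not tissue-restricted isoforms, 9 rose, by 0.20 to 0.38. These include Cox7a2l, which was assigned by its symbol and is not a standard subunit. Cox5b, which lies close to the matrix face, read 13.69, 13.71 and 13.70 without injection and 14.03, 14.09 and 14.12 with it. It rose by 0.38 ± 0.06 (limma adjusted p = 0.0044), and 2 of its other probe sets, at 6.60 and 4.57 without injection, had differences slightly below 0 (-0.11 and -0.03, not called). With the mean of all its probe sets the rise was 0.22 (adjusted p = 0.0283). Cox4i1, the ubiquitous isoform of the subunit through which ATP inhibits the enzyme, read 13.34, 13.33 and 13.32, then 13.68, 13.68 and 13.74, a rise of 0.37 ± 0.06 (adjusted p = 0.0044). Cox7a2l, which takes part in joining complexes III and IV into supercomplexes, read 11.21, 11.27 and 11.24, then 11.58, 11.60 and 11.61, a rise of 0.36 ± 0.06 (adjusted p = 0.0048). In each of these 3 genes the injected livers stood apart from the others.

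The exception among the genes that are not tissue-restricted isoforms was Cox7c, at 0.21 ± 0.10 with overlapping groups (adjusted p = 0.161). Its probe sets read 6.43 and 4.41 on average without injection, levels at which RMA compresses differences. The count of 12 for complex IV became 7 when not-injected replicate 2 or injected replicate 3 was left out.

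Several subunits of cytochrome c oxidase have a second isoform that is made mainly in other tissues, and 2 of these isoforms gave the largest rises among the members. Cox7a1 and Cox8b are known as the isoforms of heart, skeletal muscle and brown fat. Cox7a1 read 6.64, 6.25 and 6.45 without injection and 9.76, 10.28 and 9.64 with it. The means were 6.45 ± 0.20 and 9.89 ± 0.34 (SD, n = 3), a rise of 3.44 ± 0.18 (SE; 10.9-fold, limma adjusted p = 6.06e-05). Cox8b read 6.12, 6.33 and 6.17 without injection and 9.55, 9.07 and 9.66 with it. The means were 6.21 ± 0.11 and 9.43 ± 0.31 (SD, n = 3), a rise of 3.22 ± 0.15 (9.32-fold, adjusted p = 5.083e-05). In both genes every injected liver lay far above every liver without injection. Each has 1 probe set, and both were called in all 15 alternatives. Without injection both read below the median of every array and are not shown to be above background, so these folds of RMA values are not exact and may understate the change.

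The liver isoforms of the same subunits also rose, by far less. Cox7a2 read 13.48, 13.43 and 13.48 without injection and 13.81, 13.75 and 13.77 with it, a rise of 0.31 ± 0.06 (limma adjusted p = 0.0091). Cox8a read 12.01, 11.96 and 12.02, then 12.22, 12.29 and 12.30, a rise of 0.28 ± 0.06 (adjusted p = 0.0147), which did not pass with the mean of its probe sets (0.16, adjusted p = 0.0714). Within each array, the log2 difference between Cox7a1 and Cox7a2 changed by 3.14 and that between Cox8b and Cox8a by 2.94. In the opposite direction, Cox6a2 changed by -0.40 relative to Cox6a1 and Cox4i2 by -0.38 relative to Cox4i1. Each of these 4 changes separated the groups and had an exact two-sided permutation p of 0.1, the smallest that 3 against 3 arrays can give. Cox6a1 and Cox4i1 were called higher, while Cox6a2 and Cox4i2, at 7.13 and 6.16 on average without injection, were not called. The changes within these pairs therefore do not show a fall of Cox6a2 or Cox4i2.

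None of the other 4 tissue-restricted isoforms with a value changed to that extent, and Cox7b2 and Ndufa4l2 were not analysed here. Cox6a2, also an isoform of heart and skeletal muscle, read 7.04, 7.23 and 7.13 without injection and 6.95 to 7.05 with it, a difference of -0.13 ± 0.07 (adjusted p = 0.214), while its liver form Cox6a1 rose by 0.27 ± 0.06 (adjusted p = 0.0215). Cox4i2, known from lung, differed by -0.01 ± 0.09 (adjusted p = 0.966), a value just above 0 under a second quantile normalisation. The testis isoforms were Cox8c, at -0.14 ± 0.08 (adjusted p = 0.213), and Cox6b2. Cox6b2 read 5.73 ± 0.13 (SD, n = 3) without injection and 6.08 ± 0.08 with it, with the groups apart, a rise of 0.35 ± 0.09 (adjusted p = 0.0216) that did not pass without moderation of the variances (adjusted p = 0.0741) or when not-injected replicate 1, not-injected replicate 2, injected replicate 1 or injected replicate 3 was left out. Its change was close to that of the ubiquitous Cox6b1 (0.37 ± 0.06), and within arrays the pair changed by -0.02 relative to each other (exact permutation p = 0.9).

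**Figure D3:**
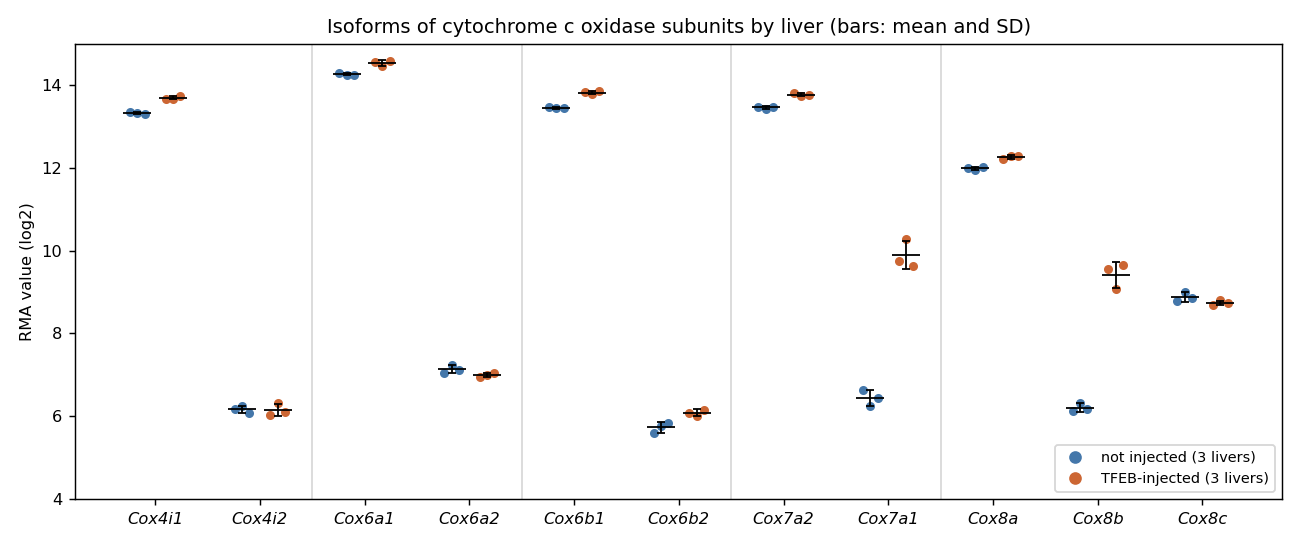
RMA log2 level (vertical axis) of the isoforms of 5 subunits of cytochrome c oxidase in each of the 3 livers without injection and the 3 TFEB-injected livers, with horizontal bars for the mean and error bars for the SD. Cox7a1 and Cox8b lie between 6.12 and 6.64 without injection and between 9.07 and 10.28 with it, while no other isoform rose by more than 0.37.

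The bases before the start sites of these isoform pairs are shown because the 2 genes of a pair differ in their rise. Cycs and Atp5g3, called members whose promoters hold a motif of a factor known for mitochondrial genes, are shown beside them. Each sequence is the 250 bases before the RefSeq gene start in GRCm38.p6, read on the gene's strand, with any motif match in capitals. Cox7a1 is chr7:30183921-30184170 on the plus strand, Cox7a2 is chr9:79759854-79760103 on the minus strand, Cox8b is chr7:140900447-140900696 on the minus strand and Cox8a is chr19:7217617-7217866 on the minus strand. Cycs is chr6:50566570-50566819 and Atp5g3 is chr2:73911327-73911576, both on the minus strand. The capitals mark the NRF-1 letters in Cycs and the ERR letters, read on the other strand, in Atp5g3.
Cox7a1: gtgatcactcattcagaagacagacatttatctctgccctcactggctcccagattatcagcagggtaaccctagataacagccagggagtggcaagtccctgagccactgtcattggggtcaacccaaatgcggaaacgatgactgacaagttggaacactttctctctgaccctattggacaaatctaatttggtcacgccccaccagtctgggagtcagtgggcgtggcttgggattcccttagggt
Cox7a2: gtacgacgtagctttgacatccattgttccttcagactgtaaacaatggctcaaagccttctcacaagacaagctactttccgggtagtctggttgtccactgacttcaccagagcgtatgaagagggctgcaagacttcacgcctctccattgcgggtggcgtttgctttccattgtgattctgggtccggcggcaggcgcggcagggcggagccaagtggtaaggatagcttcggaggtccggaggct
Cox8b: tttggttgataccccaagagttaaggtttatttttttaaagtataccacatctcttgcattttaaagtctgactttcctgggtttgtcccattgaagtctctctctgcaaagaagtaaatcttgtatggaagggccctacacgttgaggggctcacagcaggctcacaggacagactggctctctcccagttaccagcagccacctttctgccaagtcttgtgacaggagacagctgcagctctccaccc
Cox8a: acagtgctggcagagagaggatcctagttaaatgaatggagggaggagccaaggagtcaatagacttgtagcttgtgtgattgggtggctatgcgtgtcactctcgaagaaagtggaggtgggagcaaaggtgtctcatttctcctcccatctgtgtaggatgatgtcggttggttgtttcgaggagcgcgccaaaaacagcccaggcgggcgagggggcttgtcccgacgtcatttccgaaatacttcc
Cycs: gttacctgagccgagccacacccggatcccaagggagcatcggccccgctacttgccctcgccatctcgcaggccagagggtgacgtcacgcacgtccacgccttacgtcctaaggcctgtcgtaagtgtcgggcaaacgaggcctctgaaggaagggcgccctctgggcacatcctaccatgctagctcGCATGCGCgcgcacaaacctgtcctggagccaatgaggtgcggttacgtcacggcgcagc
Atp5g3: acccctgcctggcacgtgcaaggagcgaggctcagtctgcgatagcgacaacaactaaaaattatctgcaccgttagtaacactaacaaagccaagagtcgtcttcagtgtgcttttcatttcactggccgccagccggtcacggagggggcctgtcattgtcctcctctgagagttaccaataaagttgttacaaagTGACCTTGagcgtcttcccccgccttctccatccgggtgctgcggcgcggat
The windows of the muscle-type isoforms hold fewer CG dinucleotides, 4 in Cox7a1 and 1 in Cox8b, than those of the liver forms, 14 in Cox7a2 and 11 in Cox8a. The median was 14.0 over the windows of 65 members and 14.0 over those of 9882 measured genes.

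Promoters of 65 of the 80 members were found in the RefSeq table by gene identifier, and each was searched from 250 bases before to 50 bases after the start, on both strands. The NRF-1 letters GCATGCGC were in the promoters of 10 members (15.4%), against 5.01% of the measured genes and 2.71% of the 32851 promoters in the table. The letters CCGGAAG, bound by GABP and other ETS factors, were in 17 (26.2%), against 16.4% of the measured genes and 8.86% of all promoters. The ERR letters CAAGGTCA were in 4 (6.15%), against 1.46% and 1.56%, and the YY1 letters AAGATGGC in 9 (13.9%), against 4.39% and 2.75%. The E-box TCACGTGA, which TFEB can bind and which reads the same on both strands, was in 1 member, Ndufa7 (1.54%), against 1.76% of the measured genes and 0.97% of all promoters. Ndufa7 differed by 0.08 (limma adjusted p = 0.430). NRF-1 letters were in 2 of 31 called members and in 8 of 34 others, and ERR letters in 3 of 31 and 1 of 34. In all, 32 of 65 members held none of the 5 motifs, Cox7a1, Cox8b and Cox7a2 among them. The matches of CCGGAAG in Cox8a, on the other strand, lie wholly or in part after the last base printed for it and so have no capitals. These are matches of letters and do not show binding.

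In complex V, ATP synthase, all 17 members lay above 0, 8 rose and 9 did not pass, with a median difference of 0.18. Over all genes, 40.4% lay above 0 and 14.2% were called higher. Subunits of the catalytic head were among those that rose. Atp5a1, the alpha subunit, read 12.87, 13.00 and 13.07 without injection and 13.38, 13.46 and 13.51 with it, a rise of 0.47 ± 0.08 (limma adjusted p = 0.0044). With the mean of its 3 probe sets, which differed by 0.05, 0.37 and 0.47, the rise was 0.30 (adjusted p = 0.0125). Atp5b, the beta subunit that makes ATP, read 13.39, 13.33 and 13.34, then 13.72, 13.76 and 13.88, a rise of 0.43 ± 0.07 (adjusted p = 0.0041). In both the injected livers stood apart. Atp5c1, the gamma subunit that turns inside the head, rose by 0.25 ± 0.06 (adjusted p = 0.0229), but the mean of its 2 probe sets differed by 0.10 and did not pass (adjusted p = 0.398). The remaining subunits of the head and central stalk did not pass, Atp5d at 0.15 (adjusted p = 0.0943) and Atp5e at 0.02 (adjusted p = 0.824). Atp5e was the member of complex V nearest to 0 and reached -0.01 in its lowest alternative.

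The c ring, which the protons turn, is encoded by 3 genes for the same mature protein. Atp5g3 read 13.81, 13.83 and 13.82 without injection and 14.02, 14.08 and 14.10 with it, a rise of 0.24 ± 0.06 (adjusted p = 0.0216). Atp5g1 and Atp5g2 differed by 0.16 ± 0.10 (adjusted p = 0.254) and 0.14 ± 0.07 (adjusted p = 0.163). Within arrays, Atp5g1 changed by -0.08 relative to Atp5g3 (exact permutation p = 0.5) and Atp5g2 by -0.11, with the groups apart (exact permutation p = 0.1, the smallest possible).

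In the peripheral stalk, which keeps the head from turning, Atp5o rose by 0.28 ± 0.07 (adjusted p = 0.0202; 0.18 and adjusted p = 0.0848 with the mean of its probe sets) and Atp5pb by 0.27 ± 0.06 (adjusted p = 0.0153), with its other probe set at 0.49 ± 0.07. Atp5h and Atp5j, the others of the stalk, did not pass. Of 5 further membrane subunits, Atp5mpl rose most. It read 11.89, 11.79 and 11.80 without injection and 12.33, 12.19 and 12.24 with it, a rise of 0.42 ± 0.07 (adjusted p = 0.0046), and Atp5j2 rose by 0.22 ± 0.06 (adjusted p = 0.0372). With 1 array left out, the count of 8 for complex V became 5 (not-injected replicate 1), 3 (not-injected replicate 2), 3 (not-injected replicate 3) or 4 (injected replicate 3).

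Of 19 measured regulators of mitochondrial biogenesis, 3 rose and 2 fell, shares near those of all genes (14.2% higher and 13.9% lower), with a median of 0.00. Ppargc1a, the coactivator PGC-1 alpha that drives many respiratory chain genes, read 8.15, 7.61 and 8.04 without injection and 10.32, 10.14 and 10.05 with it, a rise of 2.24 ± 0.15 (4.71-fold, limma adjusted p = 0.000122). Esrra, the nuclear receptor through which PGC-1 alpha acts on these genes, rose by 0.56 ± 0.08 (adjusted p = 0.0032). The third that rose was Polg, the mitochondrial DNA polymerase. Those that fell were Esrrg, a receptor related to Esrra (-0.34 ± 0.10, adjusted p = 0.0344), and Polg2, the accessory subunit of the polymerase (-0.42 ± 0.12, adjusted p = 0.0375). Esrrg read 5.93 on average without injection and 5.58 with it, close to the lower quartile of the arrays (5.46 to 5.56). Other known regulators did not pass, with Ppargc1b at 0.22 (adjusted p = 0.167), Nrf1 at 0.07 (adjusted p = 0.619; -0.13 with the mean of its probe sets), Gabpa at -0.12 (adjusted p = 0.207) and Tfam, which packages and transcribes mitochondrial DNA, at 0.06 (adjusted p = 0.554).

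Carriers that link ATP synthase to the rest of the cell were higher beside the subunits: of 9 genes for uncoupling proteins, adenine nucleotide and phosphate carriers, pore proteins and the ATP synthase inhibitor, 7 rose and 0 fell (0 also at an unadjusted p under 0.05), with a median of 0.50. The shares over all genes were 14.2% higher and 13.9% lower. Slc25a4, the heart and muscle isoform of the ADP/ATP carrier, read 7.34, 6.90 and 6.90 without injection and 11.96, 10.59 and 11.92 with it. It rose by 4.44 ± 0.35 (21.7-fold, limma adjusted p = 0.000259), or 3.05 with the mean of its 4 probe sets. Slc25a5, the isoform usual in liver, rose by 0.71 ± 0.06 (adjusted p = 0.000438). For Slc25a4, Cox7a1 and Cox8b the liver form of the same protein thus rose by less, whereas Cox6a2, another muscle-type isoform, was not called. Atpif1, which inhibits ATP synthase when it runs in reverse, read 9.77, 9.56 and 9.60, then 10.88, 10.41 and 10.98, a rise of 1.12 ± 0.15 (adjusted p = 0.0021). In Slc25a4, Atpif1 and Cox8b injected replicate 2 was the lowest of the injected livers, and in Cox7a1 it was the highest. Ucp1, the uncoupling protein of brown fat, read 4.76 to 4.94 over all 6 livers (-0.03, adjusted p = 0.801). Ucp3, another uncoupling protein, rose by 0.50 ± 0.15 (adjusted p = 0.0392) in the brighter of its 2 probe sets, with the groups apart. It read 6.05 on average without injection and 6.56 with it, below the median of every array.

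Of 34 measured assembly factors of the complexes, 6 rose, 3 fell and 25 did not pass, against 14.2% higher and 13.9% lower over all genes, with a median of -0.01. Tmem70, needed to assemble ATP synthase, rose by 0.50 ± 0.08 (adjusted p = 0.0036), and Sco2, which delivers copper to cytochrome c oxidase, fell by 0.45 ± 0.07 (adjusted p = 0.0040). Of 25 genes for the import of proteins into mitochondria, 11 rose and 1 fell, with a median of 0.20. Timm44, which ties the import motor to the channel, rose by 0.77 ± 0.06 (adjusted p = 0.000328), and Timm10, a chaperone between the membranes, by 0.70 ± 0.06 (adjusted p = 0.000473). Of 17 genes for coenzyme Q synthesis and other enzymes that feed electrons to it, 3 rose and 2 fell, with a median of 0.07. Coq9, of coenzyme Q synthesis, rose by 0.33 ± 0.06 (adjusted p = 0.0066) and Prodh2, a hydroxyproline dehydrogenase, fell by 0.73 ± 0.11 (adjusted p = 0.0038).

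**Figure D4:**
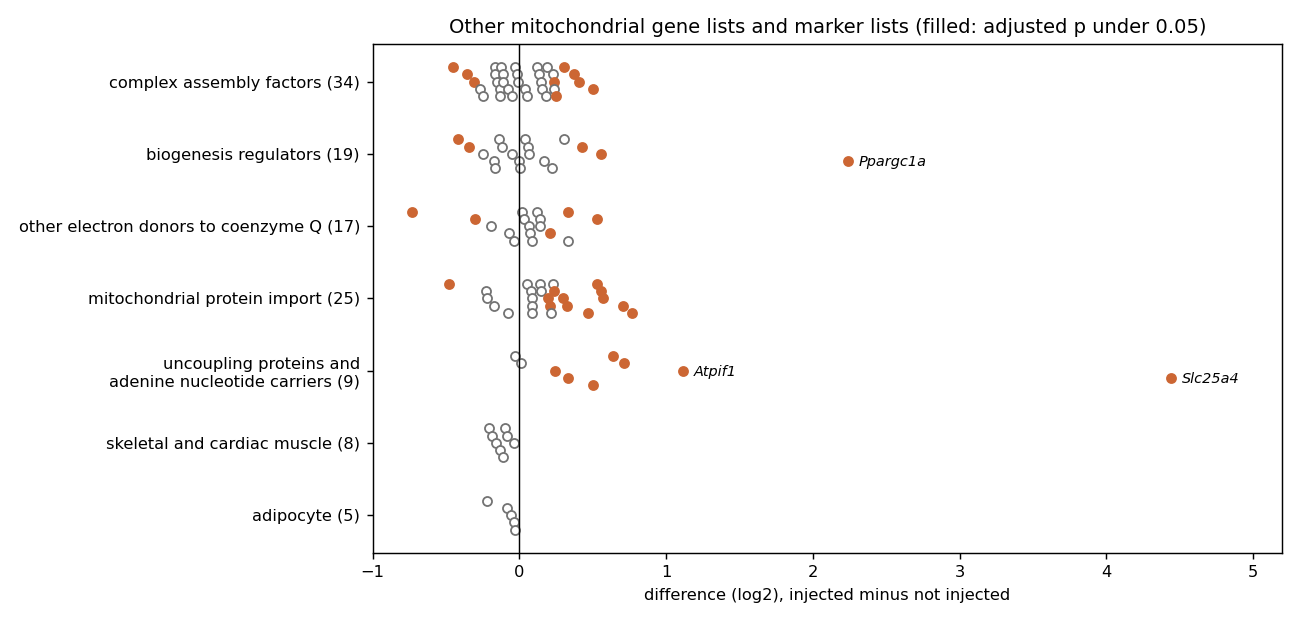
Log2 difference, injected minus not injected (horizontal axis), of each measured gene in 5 lists of other mitochondrial genes and in the muscle and adipocyte marker lists, with the number of genes in parentheses and filled points for adjusted p under 0.05. Slc25a4, Ppargc1a and Atpif1 are the 3 genes above 1, and the muscle and adipocyte markers lie between -0.22 and -0.03.

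Because the isoforms that rose most are known from muscle and brown fat, markers of these tissues were set beside them. Of 8 skeletal and cardiac muscle markers, 0 were called by limma and 0 lay above 0; at an unadjusted p under 0.05, 2 were lower. Their summed level was 8.66 to 8.69 (log2) without injection and 8.51 to 8.59 with it. Ckm, the muscle creatine kinase, differed by -0.21 (adjusted p = 0.0932), and the myosin Myh7 by -0.09 (adjusted p = 0.521). Of 5 adipocyte markers, 0 were called and 0 lay above 0, with 1 lower at an unadjusted p under 0.05, and their sums were 7.49 to 7.63 and 7.42 to 7.64. The myosins Myh4, Myh6 and Myh7 read 4.41 to 4.96 over all 6 livers, below the lower quartile of each array. Both marker lists lay below 0, with medians of -0.12 (muscle) and -0.05 (adipocyte). So did most genes, since 40.4% of all genes lay above 0 and their median was -0.05. A part of muscle or fat tissue in the rise of Cox7a1, Cox8b and Slc25a4 was not tested.

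Markers of liver cells were set beside the members as well. Over all genes, 14.2% were called higher and 13.9% lower. Of 9 hepatocyte markers 1 rose and 3 fell, and their summed level was 17.39 to 17.42 without injection and 17.28 to 17.32 with it. Of 8 sinusoidal endothelial markers 5 rose and 0 fell (0 also at an unadjusted p under 0.05), with sums of 12.05 to 12.28 and 12.64 to 12.90, and of 9 Kupffer cell markers 2 rose and 1 fell, with sums of 13.09 to 13.46 and 13.43 to 13.65. The hepatocyte and endothelial sums did not overlap between the groups (exact permutation p = 0.1 for each, the smallest possible). The largest shift of a sum was that of 2 erythroid markers, from 10.286 to 10.338 without injection to 8.467 to 9.145 with it (-1.55, exact permutation p = 0.1). The part of cell composition in the members' rise was not tested. Stellate cell, cholangiocyte, B cell, and T and NK cell markers gave 1 call among them, a fall in a stellate cell gene. Of 4 neutrophil markers 1 rose, and of the 2 erythroid markers 1 fell.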

How the data were processed

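Liver RNA of 3 TFEB-injected and 3 not-injected mice was measured, 1 array per mouse; the titles describe biological replicates. The authors deposited log2 levels for each probe set. The submitters' processing notes name affy and RMA without a version; filters are not given in the sources used here. Of 22690 probe sets, 64 controls were left out, as were 691 with several symbols and 1555 with none. The other 20380 probe sets gave 12393 genes, each read from the probe set that was brightest on average over the 6 arrays. The members had 151 probe sets, and 44 members had more than 1. In 34 of these 44 all probe sets lay above 0, in 9 they lay on both sides, and in 0 were probe sets called in both directions.

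Injected minus not-injected differences were tested two-sided with limma 3.58.1 (R 4.3.3; lmFit and eBayes, prior degrees of freedom 3.47), without a covariate. P-values were adjusted by Benjamini-Hochberg over all 12393 genes, and calls were made at an adjusted p under 0.05. Differences carry the SE of the fit. With 3 arrays per group, an exact permutation test over arrays cannot go below 0.1; their number limits the precision. The fit was tested on simulated data. Tables and plots were made with Python 3.11.15, pandas 2.3.3, numpy 2.4.6 and matplotlib 3.10.9.

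The members and gene lists were chosen with earlier results of these data known. Named were all members of complex II, Cycs and Cyc1, the called members with the largest differences of the other complexes (6 of complex I and 4 each of III, IV and V), the member of each complex nearest to 0, tissue-restricted isoforms and paralogue sets, members that another probe set or a left-out array turns in direction, 6 regulators and up to 2 called genes of each other list. Further members are named to account for their complex and were chosen after their values were seen. The groups of subunits by role within a complex were also made after the values were seen. The replicate numbers of the titles were not taken to pair the mice. Alternatives were each array left out in turn, a replicate block, array weights, moderation with an intensity trend or none, a repeated quantile normalisation or median centring, probe sets averaged or tested singly, only genes in the brighter part of the table (from the median level up), and a member list restricted to standard subunits.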

Additional observations from a re-analysis of the deposited data

Results flagged for a closer look

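Probe sets that the annotation assigns to several genes were left out of the report's comparisons, and 3 of those that match a complex I member stood apart between the groups. The probe set of Ndufs5 and its pseudogene Ndufs5-ps read 0.4092 higher in injected liver on the log2 scale, from 12.17, 12.12 and 12.11 without injection to 12.52, 12.62 and 12.49 with it. The probe sets shared by Ndufb4, Ndufb4b and Ndufb4c read 0.3919 and 0.4093 higher, with every injected liver above every liver without injection. They cannot be assigned to 1 gene of their set. The other 4 such probe sets, which match Ndufa11, Ndufs6, Ndufa13 or Ndufb2, differed by -0.01 to 0.10 and their groups overlapped.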

How the results depend on the processing

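With other settings and all 6 arrays, 34 to 49 members rose, 0 fell, and the median difference of the members was 0.19 to 0.22. Of all genes tested, 7.42% (without variance moderation) to 24.4% (genes from the median level up) were then called higher. The lowest count of 34 came with a replicate block and with centring on the array median, and the highest of 49 with an intensity trend. Counts per complex with all arrays stayed within 1.5 times those reported. With 1 array left out, the count ranged from 19 to 38 for all members, from 4 to 10 for complex I, from 0 to 2 for complex II, from 3 to 5 for complex III, from 7 to 12 for complex IV and from 3 to 8 for complex V, while 0 members fell and the median difference was 0.19 to 0.22. Of all genes, 8.36% to 17.3% were called higher in these fits. The replicate block rested on numbers that were not shown to pair mice: deviations of same-numbered arrays correlated at 0.14, 0.06 and 0.01, and the 34 rises of this paired fit were all among the 39. No called gene among those named changed sign in any alternative. The median of all genes lay between -0.07 and -0.01 over all settings.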
